A study of Mus musculus with 2 samples.

Results

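The 21 fungiform taste cells described here came from 1 library and were divided by their level of Kit, the gene of a receptor tyrosine kinase. They were kept from 29 fungiform barcodes (cell labels) of the 90 in the series, with more than 500 genes detected and Gnat3 above 0.9 on the scale ln(1 + 10000 × count / barcode total). Kit was at 50 CPM (the counts of a gene scaled to 1000000 counts in that barcode) or more in 7 cells and below that level in 14. The members of each side were chosen by their measured Kit counts, so Kit is given as a description and is left out of every count of genes. Both sides are sorted GFP-positive cells of adult α-gustducin-GFP mice on a C57BL/6J background, which make green fluorescent protein under the control of the α-gustducin gene. The reporter is shared by both sides, and no mice without the reporter are used here. The sources used here do not tell how many animals gave the cells. Cells of 1 library are not replicates, so the sides were not tested against each other. The 95% intervals of levels and ratios below cover counting error alone. Those of shares treat the cells of a side as independent draws, and none covers the spread between animals.

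Type II taste cells carry receptors for sweet, umami or bitter compounds. Sweet compounds act on a receptor of the subunits Tas1r2 and Tas1r3, umami compounds on Tas1r1 with Tas1r3, and bitter compounds on the Tas2r family. All of them signal through a G protein such as gustducin, phospholipase Plcb2, the calcium channel Itpr3 and the cation channel Trpm5. Kit binds stem cell factor (Kitl) and signals through adaptors, phosphatases and the Ras, PI3-kinase and JAK-STAT routes, and it is best known in mast cells, melanocytes and the pacemaker cells of the gut.

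The cells of both sides carried the markers of type II taste cells. The 7 type II markers left without Kit and Gnat3, which both took part in choosing the cells, summed to between 4296 and 20453 CPM in Kit-positive cells (median 12397) and to between 6303 and 22812 CPM in Kit-negative cells (median 16574). Markers of mast cells and melanocytes, and Ano1 of the gut pacemaker cells, were low. Of 11 mast cell genes 2 were listed, and their sum reached at most 10.5 CPM in Kit-positive and 1.37 CPM in Kit-negative cells. Of 9 melanocyte genes 3 were listed, with sums up to 48.2 CPM (cell P7, all from Tyr) and 33.4 CPM, and Pmel was at 0 in every cell. Ano1, a defining gene of the pacemaker cells of the gut, was at 0 in all 7 Kit-positive cells and at most 1.56 CPM in the others. The 4 immune markers listed, Ptprc among them, were at 0 in all Kit-positive cells and summed to at most 3.59 CPM in the Kit-negative cells. Lingual keratinocyte markers (15 of 18 listed) were present on both sides, from 138 to 865 CPM (median 358) in Kit-positive and from 110 to 1759 CPM (median 523) in Kit-negative cells, against over 10000 CPM of Krt13 alone in 5 of the 8 fungiform barcodes that were not kept. Progenitor and basal cell markers (12 of 13 listed) summed to between 9.45 and 646 CPM against 0 and 1185 CPM. Type I markers (7 of 10 listed) reached 161 CPM in cell P6, from Entpd2, and at most 1.56 CPM in the Kit-negative cells. Type III markers (7 of 16 listed) reached at most 10.7 CPM in Kit-positive cells and 481 CPM in Kit-negative cells. Fibroblast markers (5 of 7 listed) stayed at or below 4.57 CPM and 101 CPM, muscle markers (2 of 8) at or below 0.813 CPM and 3.48 CPM, and no endothelial or salivary gland marker was listed. Markers of neurons and Schwann cells (7 of 11 listed) ranged from 1.63 to 745 CPM and from 0 to 666 CPM, with Tubb3 at the top on both sides. The part of these markers in the differences below was not tested.

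The cells are called P1 to P7 by falling Kit level and N1 to N14 by falling total counts. Kit-positive cells held 211586 to 3190340 counts (median 1141644) and Kit-negative cells 193718 to 1688904 (median 1107271). They had a median of 6177 and 6623.5 genes detected, and a median mitochondrial share of 15.1% and 11.03%. Mitochondrial shares above 30% were found in 4 cells, P3 (68.03%), P7 (34.3%), N12 (54.1%) and N14 (39.8%). The totals over all genes and the results that turn on these cells are also given without them. The level of 50 CPM that defines a gene as on takes 9.69 counts in the shallowest cell and 159.5 in the deepest. No barcode number was shared with the circumvallate table.

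Kit divided the cells with a wide gap and no cell near the limit. Kit stood at 865 CPM in P1, 822 in P2, 378 in P3, 354 in P4, 221 in P5, 220.3 in P6 and 197 CPM in P7. Of the Kit-negative cells 6 had no Kit count and 8 had 1 to 4 counts. The member just inside the limit was P7, and the one just outside was N14 at 15.5 CPM, from 3 counts. The 8 fungiform barcodes that were not kept reached at most 2.81 CPM of Kit. The Kit gene lies on chr5:75574916-75656722 (plus strand, mm10).

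Tas1r1, the umami receptor subunit, and Tas1r2, the sweet receptor subunit, were on only in Kit-positive cells of this library, and in few of them. Tas1r1 was at 5800.2 CPM in P1, 5415 CPM in P2 and 65.7 CPM in P4, while P3, P5, P6 and P7 had at most 6.28 CPM. In the Kit-negative cells its lowest, median and highest levels were 0, 2.05 and 5.16 CPM. Tas1r1 was thus on in 3 of 7 cells (42.9%, exact Clopper-Pearson interval 9.90 to 81.6%) against 0 of 14 (exact interval 0 to 23.2%, and 21.4% by a floor of 3 cells). The pooled levels of Tas1r1 were 1613 CPM (exact Poisson interval 1587 to 1640.5) and 1.99 CPM (1.32 to 2.88), and P1 and P2 gave nearly all of the first. Tas1r2 was at 392 CPM in P1 and 85.99 CPM in P4 and had no count in the other Kit-positive cells. Only 2 Kit-negative cells had any Tas1r2, with 0.681 and 0.686 CPM from 1 count each. Of all 9813 eligible genes, those with a pooled level of at least 10 CPM on either side, 2.66% were on in 2 or more Kit-positive cells and in no Kit-negative cell, and 0.479% in 3 or more and none. In the 8 barcodes that were not kept no Tas1r gene was above 2.50 CPM.

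Tas1r3, the subunit that both receptors share, was on in 5 of the 7 Kit-positive cells (71.4%, 29.04 to 96.3%) and in 3 of the 14 Kit-negative cells (21.4%, 4.66 to 50.8%). Its levels were 269.6 CPM in P1, 625 in P2, 266 in P4, 109 in P5 and 136 CPM in P6, with no count in P3 and P7. The Kit-negative cells with Tas1r3 on were N5 at 483 CPM, N4 at 249.6 CPM and N11 at 117 CPM, and the median of that side was 2.54 CPM. The groups overlapped, since N5 exceeded every Kit-positive cell but P2. Both Kit-positive cells without Tas1r3 were the ones with a mitochondrial share above 30%, so that without the 4 such cells Tas1r3 was on in 5 of 5 against 3 of 12 cells. The shares differ by 50 points, and 0.632% of the eligible genes differed by 50 points or more in this direction. The pooled Tas1r3 levels were 216 and 80.4 CPM, a ratio of 2.68 (2.49 to 2.89). Counted from the other side, Kit-positive cells made up 62.5% of the 8 cells with Tas1r3 on. At 1 count or more in place of 50 CPM the order of the Tas1r3 shares turned around, with a difference of -7.14 points. All 3 members of the sweet and umami receptor list were at least 2-fold higher in Kit-positive cells, beside 22.4% of all eligible genes, but Tas1r1 and Tas1r2 were eligible only through the Kit-positive side and so had to differ. The list was chosen with results of these cells known, so its direction is not independent evidence.

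The 250 bases before the RefSeq start sites of Kit and the Tas1r genes are shown because these genes were on in overlapping sets of cells, among them the cells with the ETS-family factor Etv1 on. They are from the RefSeq table of GRCm38.p6, 5′ to 3′ in the direction of the gene. Capitals mark the letters CCGGAA, an ETS site form longer than the shared GGAA core, and TGCAAAT. The latter is the core of the octamer that factors such as Pou2f3 bind. Each was sought on both strands, and the marked letters do not overlap in these windows. GGAA alone was not sought. CCGGAA or its complement occurred in 3952 of 32851 windows of that length (12.03%), and TGCAAAT or its complement in 1171 (3.56%). The Tas1r1 window held 1 CCGGAA, the Tas1r2 window 1 TGCAAAT, and the Kit and Tas1r3 windows neither of these strings. For Kit the first of 2 starts was taken (chr5:75574737-75574986, plus strand). The other windows are chr4:152038491-152038740 (minus strand) for Tas1r1, chr4:139653288-139653537 (plus strand) for Tas1r2 and chr4:155863354-155863603 (minus strand) for Tas1r3. In the GENCODE annotation of the same build the Kit, Tas1r1 and Tas1r3 genes reach into these windows (Tas1r1, chr4:152027914-152038568; Tas1r3, chr4:155859268-155863362), whereas Tas1r2 begins just after its window (chr4:139653538-139670280). The CCGGAA of the Tas1r1 window lies in the part that this annotation places inside the gene. A match is a description of letters and not a shown binding site.
Kit: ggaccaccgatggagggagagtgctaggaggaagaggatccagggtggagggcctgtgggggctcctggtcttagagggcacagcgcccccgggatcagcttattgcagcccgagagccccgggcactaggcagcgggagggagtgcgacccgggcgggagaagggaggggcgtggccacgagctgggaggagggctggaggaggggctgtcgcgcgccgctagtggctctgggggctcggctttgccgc
Tas1r1: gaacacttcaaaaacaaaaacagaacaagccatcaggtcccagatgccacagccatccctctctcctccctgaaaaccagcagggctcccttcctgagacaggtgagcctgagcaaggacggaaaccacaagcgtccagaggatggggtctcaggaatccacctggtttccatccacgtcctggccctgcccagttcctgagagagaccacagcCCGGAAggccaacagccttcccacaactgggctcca
Tas1r2: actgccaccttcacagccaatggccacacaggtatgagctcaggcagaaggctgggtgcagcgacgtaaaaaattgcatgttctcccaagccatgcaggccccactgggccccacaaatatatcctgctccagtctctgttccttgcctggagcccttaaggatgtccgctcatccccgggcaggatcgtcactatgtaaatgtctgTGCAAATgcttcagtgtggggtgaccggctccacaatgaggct
Tas1r3: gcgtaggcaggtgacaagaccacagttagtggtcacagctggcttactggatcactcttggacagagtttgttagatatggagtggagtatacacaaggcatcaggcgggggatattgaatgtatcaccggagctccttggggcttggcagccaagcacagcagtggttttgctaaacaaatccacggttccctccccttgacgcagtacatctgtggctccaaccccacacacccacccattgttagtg

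Bitter receptors were on in 3 of 7 Kit-positive cells (42.9%, 9.90 to 81.6%) and in 10 of 14 Kit-negative cells (71.4%, 41.9 to 91.6%), counting any of the 24 Tas2r genes in the table. Without the 4 cells over 30% mitochondrial counts it was 2 of 5 and 9 of 12. P7 had 6 of them on, P5 had 2 and P6 had 1, whereas the summed Tas2r level in P1, P2, P3 and P4 was at most 9.14 CPM. Over all cells of a side, 8 different Tas2r genes were on in Kit-positive and 13 in Kit-negative cells. N8 alone had 13 of them on, with a Tas2r sum of 4075 CPM, the highest of any cell, and P7 followed with 3737 CPM. The medians of the Tas2r sum were 9.14 CPM and 533 CPM, and the ranges overlapped from 3.98 to 3737 CPM.

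Single bitter receptors differed in which cells had them on. Of 14 eligible Tas2r genes, 10 were at least 2-fold higher in Kit-negative cells and 2 in Kit-positive cells, where 29.3% and 22.4% of all eligible genes were. Of these, 7 passed the limit of 10 CPM only through the Kit-negative side and 1 only through the Kit-positive side, so that their direction was set by the limit. Of the 6 above it on both sides 3 were 2-fold higher in Kit-negative cells and 1 in Kit-positive cells. The median log2 ratio of the 14 (Kit-positive over Kit-negative, on log2(CPM + 10), which understates the change of low genes) was -1.43, against -0.13 for all eligible genes. Tas2r105, a receptor for cycloheximide, was on in P6 (445 CPM) and P7 (807 CPM) and in 7 Kit-negative cells, with 1794 CPM in N3 as the highest. Its pooled levels were 109 CPM (102 to 116) and 505 CPM (493 to 517). With the sides set at 1 Kit count the log2 ratio of Tas2r105 turned to 0.30. Tas2r118 was on in P5 (52.7 CPM) and in 5 Kit-negative cells, of which N2 was highest at 247 CPM. Tas2r106 was on in P7 at 1326 CPM and in 4 Kit-negative cells up to 1024 CPM in N10, so its ranges overlapped. Tas2r124 was on in P7 alone, at 712 CPM. P7 is one of the cells with over 30% mitochondrial counts, and without these cells Tas2r106 was on in 0 of 5 and 4 of 12 cells and Tas2r124 in none. Several receptors had most of their pooled Kit-negative counts in N8, in which Tas2r117 reached 1440 CPM and Tas2r103 775 CPM.

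**Figure D1:**
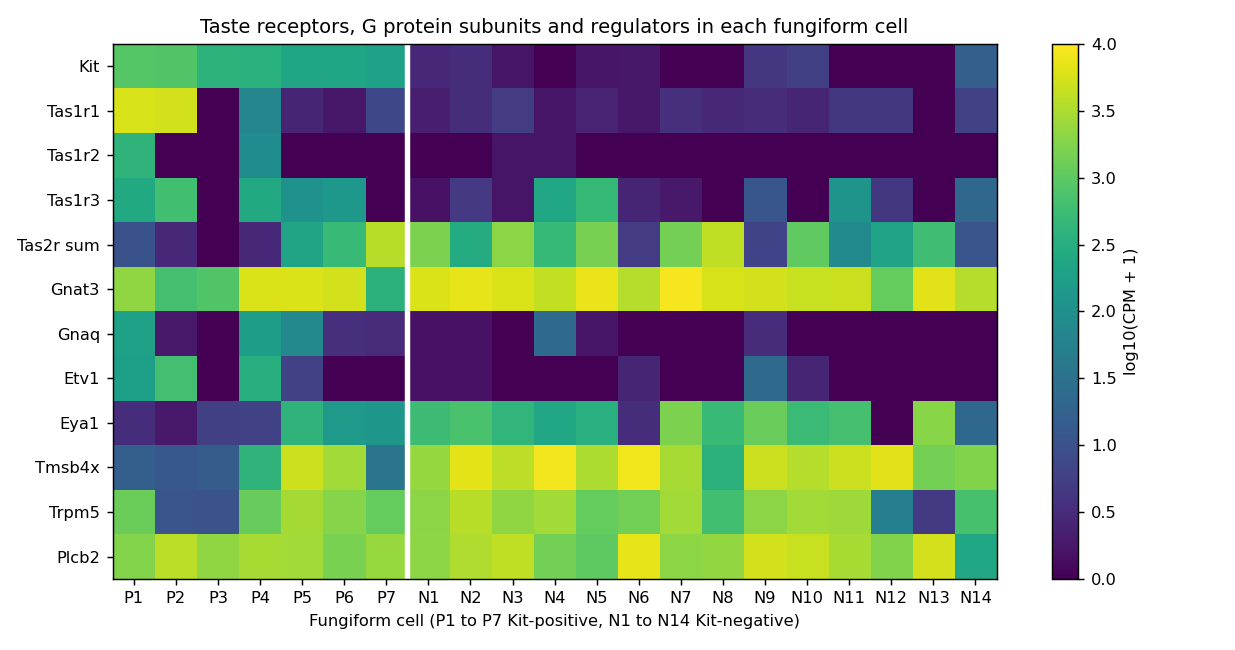
Levels of Kit, taste receptors, G protein subunits and regulators in each cell, as log10(CPM + 1) in colour, with the 7 Kit-positive cells left of the white line and the 14 Kit-negative cells right of it. Tas1r1 and Etv1 are bright in P1 and P2 and raised in P4, and these 3 cells have a low Tas2r sum and at most 4.83 CPM of Eya1.

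Receptors of both families were on in the same cell on both sides. In P5 and P6, Tas1r3 was on together with a Tas2r gene, as it was in N4 and N5, which makes 2 of 7 (28.6%, 3.67 to 71.0%) and 2 of 14 cells (14.3%, 1.78 to 42.8%). P5 held 3190340 counts and 10093 detected genes, against at most 1688904 and 8390 in any other cell. Whether P5 held 2 cells was not tested. No cell had Tas1r1 or Tas1r2 on together with a Tas2r gene at this level. Neither family was on in P3 and in 3 Kit-negative cells. Tas1r3 was on without Tas1r1 and Tas1r2 in 2 Kit-positive cells and in all 3 Kit-negative cells that had it.

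**Figure D2:**
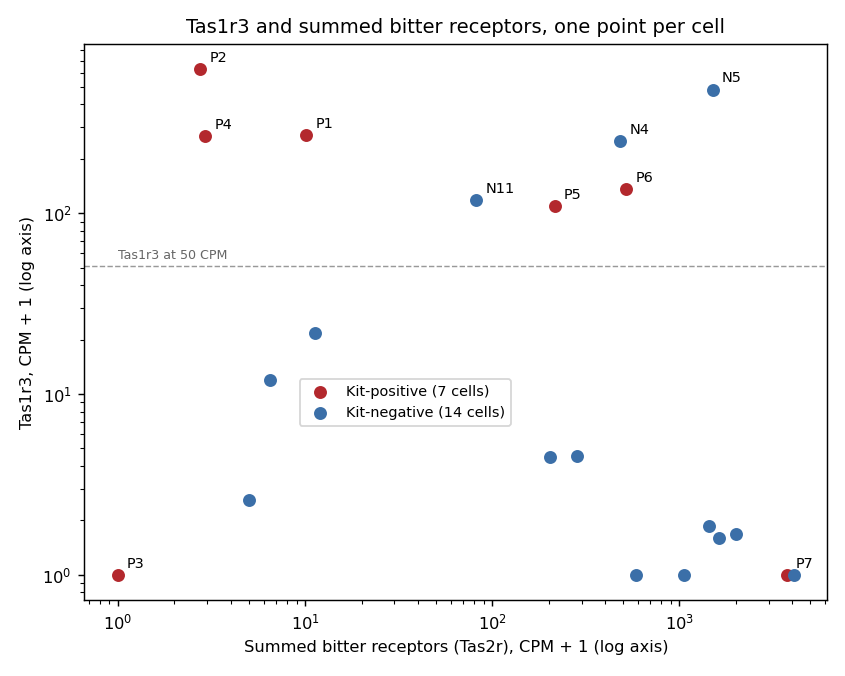
Tas1r3 against the summed bitter receptors in each cell, both as CPM + 1 on log axes, with Kit-positive cells in red and Kit-negative cells in blue. P1, P2 and P4 lie at the upper left with Tas1r3 between 266 and 625 CPM and a Tas2r sum of at most 9.14 CPM, a region that holds no Kit-negative cell.

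The shared transduction machinery was present on both sides. Plcb2 was on in all 21 cells, at 1550.8 to 3916 CPM in Kit-positive and 237 to 7137 CPM in Kit-negative cells. Gnb3, a gustducin beta subunit, was also on in every cell, with pooled levels of 5539 and 7117 CPM. Gnat3, α-gustducin itself, took part in the choice of the cells. It ranged from 377 to 6157 CPM (median 2139.6) in Kit-positive and from 1125 to 8800.3 CPM (median 5508) in Kit-negative cells. P7 (377 CPM), P2 (659.6 CPM) and P3 (822 CPM) lay below every Kit-negative cell. Trpm5 was on in 5 of 7 and 13 of 14 cells, and the 2 Kit-positive cells without it were P2 at 10.5 CPM and P3 at 9.45 CPM. P2 had 15.1% mitochondrial counts, itself the Kit-positive median (Kit-negative median 11.03%), and Plcb2 at 3916 CPM. Of 13 eligible transduction genes 2 were at least 2-fold higher in Kit-positive and 1 in Kit-negative cells (22.4% and 29.3% of all eligible genes), with a median log2 ratio of -0.27 against -0.13 for all eligible genes. Gnat3 is among the 13. Scn3a, a voltage-gated sodium channel subunit, was the gene of this list with the largest difference in share, on in 6 of 7 against 3 of 14 cells. Its pooled ratio depended on the cells rich in mitochondrial counts, P3 with 1342 CPM and P7 with 1523 CPM. Without them and the 2 such Kit-negative cells the log2 ratio of Scn3a went from 1.32 to 0.22.

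Other G protein alpha subunits had list counts near the background. Gnaq, which couples receptors to phospholipase C, was on in P1 (194 CPM), P4 (166 CPM) and P5 (75.2 CPM). No Kit-negative cell had it on, and the highest of them had 23.3 CPM. The pooled Gnaq levels were 78.1 and 2.78 CPM, a ratio of 28.1 (20.4 to 39.9). Gnaq was eligible only through the Kit-positive side, so its direction was set by the limit of 10 CPM. Gna13 was on in P6 alone (60.1 CPM) among Kit-positive cells and in 6 Kit-negative cells, up to 464 CPM in N8. Gnai1 was on in no Kit-positive cell (exact interval 0 to 40.96%, and 42.9% by the floor) and in 3 of 14 Kit-negative cells. Gnai2 and Gnas were on in most cells of both sides (6 and 5 of 7, 13 and 12 of 14). Of the 8 eligible alpha subunits 2 were at least 2-fold higher in Kit-positive cells and 3 in Kit-negative cells, close to the background shares of 22.4% and 29.3% in so short a list.

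Etv1, an ETS-family transcription factor, was on in exactly the 3 cells that had Tas1r1 on. Its levels were 177 CPM in P1, 646 CPM in P2 and 326 CPM in P4, and P5 followed with 5.02 CPM. No Kit-negative cell reached 50 CPM, and the highest had 22.96 CPM. The pooled Etv1 levels were 154 and 1.85 CPM, a ratio of 83.1 (56.5 to 128). Etv1 was eligible only through the Kit-positive side, so its direction was set by the limit of 10 CPM. Eya1, a transcriptional co-activator in sensory organ development, was spread the other way, with 3 of 7 against 11 of 14 cells on and pooled levels of 175 and 599 CPM. Within the Kit-positive cells Eya1 was on in P5 (392 CPM), P6 (146 CPM) and P7 (128 CPM), the 3 cells with a Tas2r gene on. It stood at 2.28 CPM in P1, 0.876 CPM in P2, 4.73 CPM in P3 and 4.83 CPM in P4. The 7 cells thus held 3 with Tas1r1 and Etv1 and without Tas2r or Eya1 on, 3 with Tas2r and Eya1 and without Tas1r1 or Etv1 on, and P3 with none of the 4, a grouping noticed after the values were seen. P3 had the fewest genes on, 439.

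Pou2f3, the octamer-binding factor needed for type II cells, was on in 5 of 7 and 10 of 14 cells at pooled levels of 591 and 290.01 CPM. P2 had the highest Pou2f3 level of all cells, 1049 CPM. Sox2, a factor of progenitors and young taste cells, was on in 3 of 7 and 4 of 14 cells, highest in N12 at 1031 CPM. Of 15 eligible regulators of type II cells 4 were at least 2-fold higher in Kit-positive and 2 in Kit-negative cells (background 22.4% and 29.3%), with a median log2 ratio of 0.60.

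Over all eligible genes few separated the sides by the number of cells on. Of 9813 genes 62 (0.632%) were on in a share of cells at least 50 points higher in Kit-positive cells, and 43 (0.438%) in a share that much higher in Kit-negative cells. No gene other than Kit had its lowest Kit-positive cell above its highest Kit-negative cell, or the reverse. Pooled levels at least 2-fold apart were far more common, with 2198 genes (22.4%) higher in Kit-positive and 2879 (29.3%) in Kit-negative cells. Without the highest cell of each side per gene the 2198 became 1172 of 6503 eligible genes. P3 and P7 weigh on the count of 62 genes. Without P3 it was 128, without P7 99, and without the 4 cells over 30% mitochondrial counts 238. The count for Kit-negative cells was 26 without P3 and 65 without the 4 cells.

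**Figure D3:**
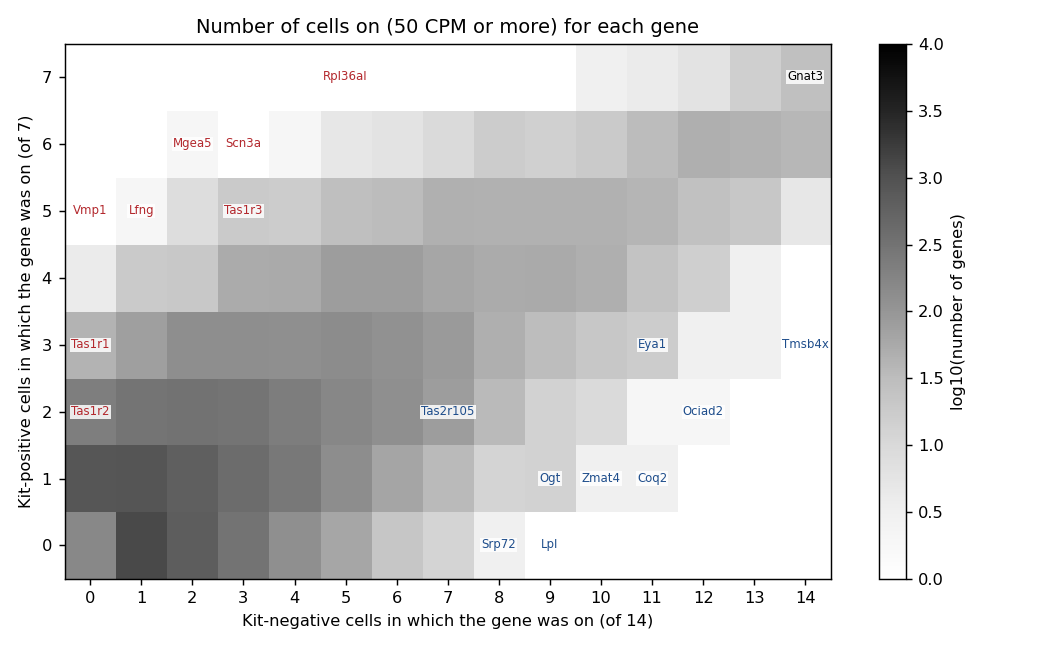
Number of genes, as log10 in grey, by the number of Kit-negative cells (horizontal axis, of 14) and Kit-positive cells (vertical axis, of 7) in which the gene was on. Named genes stand at their own position, with Vmp1 at 5 Kit-positive and 0 Kit-negative cells and Lpl at 0 and 9.

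The 15 genes that led in Kit-positive cells were of varied function. Mgea5 (chr19:45750259-45783837, minus strand), which encodes the enzyme that removes O-GlcNAc sugars from proteins, was on in 6 of 7 cells (85.7%, 42.1 to 99.6%) against 2 of 14 (14.3%, 1.78 to 42.8%). It stood at 669.5 CPM in P1, 1125 in P2, 1479 in P4, 575 in P5, 176 in P6 and 429 CPM in P7, with no count in P3. In Kit-negative cells the median of Mgea5 was 0.820 CPM, and 1 cell reached 450.4 CPM, so the sides overlapped. The pooled Mgea5 levels were 692 CPM (675 to 709.9) and 27.1 CPM (24.4 to 29.9), a ratio of 25.6 (23.1 to 28.5). Marcks (chr10:37133375-37138920, minus strand), a membrane substrate of protein kinase C that binds actin, was also on in 6 of 7 and 2 of 14 cells. Without the 4 cells over 30% mitochondrial counts Mgea5 and Marcks were each on in 5 of 5 and 2 of 12 cells. The level of Marcks was 863 CPM in P7 and 567 CPM in P6 at the top and 4.73 CPM in P3, while the highest Kit-negative cell had 103 CPM.

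Vmp1 (chr11:86583865-86683836, minus strand), a membrane protein of the endoplasmic reticulum that takes part in autophagy, matched Kit most closely of these 15 genes. Its call equalled that of Kit in 19 of 21 cells, where a gene off in every cell would score 14. The 15 were picked for large share differences, so a high score was built in. Vmp1 was on in 5 of 7 (71.4%, 29.04 to 96.3%) and 0 of 14 cells. Vmp1 levels were 202 CPM in P1, 161 in P2, 272 in P4, 60.2 in P5 and 65.8 CPM in P6, and the highest Kit-negative cell had 41.3 CPM. P3 had no Vmp1 count and P7 had 2.09 CPM, so its separation of the other 5 cells was by a narrow margin at P5 and P6. Lfng, a glycosyltransferase that modifies Notch, was on in 5 of 7 and 1 of 14 cells. On in 4 Kit-positive cells and in no Kit-negative cell were Tpgs1, a subunit of the tubulin polyglutamylase complex, Dhx16, an RNA helicase of splicing, Pih1d1, a cofactor of the chaperone Hsp90, and Dnajb2, a co-chaperone of Hsp70. These 4 genes were eligible only through the Kit-positive side, so their direction was set by the limit of 10 CPM. Dhx16 and Dnajb2 included P1, P2 and P4, with Dhx16 at 381, 364 and 334 CPM and Dnajb2 at 388, 478 and 520 CPM. Rpl36al, a ribosomal protein gene, was on in all 7 Kit-positive cells between 255 and 523 CPM and in 5 of 14 Kit-negative cells, with N3 highest at 968 CPM. Rpl36al has a near-identical paralog, so reads may be split between the genes. Gnl3l, Cdc34, G3bp2, Hmgn5, Cplx2 and Rad51d were each on in 5 of 7 and 2 of 14 cells. Cplx2, a complexin of regulated vesicle release, was highest in P2 (326 CPM) and N11 (205 CPM).

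The 15 genes that led in Kit-negative cells were of varied function. Lpl (chr8:68880491-68907448, plus strand), lipoprotein lipase, was on in 0 of 7 cells (0 to 40.96%) and in 9 of 14 (64.3%, 35.1 to 87.2%). Kit-positive cells had at most 20.1 CPM of Lpl, in P5, and the Kit-negative cells had a lowest, median and highest level of 0, 74.3 and 754 CPM. The pooled levels were 8.61 and 172 CPM, a ratio of 19.97 in favour of the Kit-negative cells (15.8 to 25.5). Lpl was eligible only through the Kit-negative side, so its direction was set by the limit of 10 CPM. With the sides set at 1 Kit count the log2 ratio of Lpl turned to 0.49. Auh, an enzyme of leucine breakdown, and Coq2, an enzyme of coenzyme Q synthesis, were each on in 1 of 7 and 11 of 14 cells. Auh was on in P6 at 384 CPM and Coq2 in P5 at 211 CPM, both above the Kit-negative medians of 160 and 153 CPM. Zmat4, a zinc finger gene, was on in P5 alone (68.3 CPM) among Kit-positive cells and in 10 of 14 Kit-negative cells with a median of 370 CPM. Ociad2 and Prrc2a were each on in 2 of 7 and 12 of 14 cells, and Pcbd2 in 1 and 10.

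Srp72, a subunit of the signal recognition particle, Hdac5, a histone deacetylase, and Raph1, a regulator of actin at the leading edge, were on in no Kit-positive and in 8 Kit-negative cells each. The highest Kit-positive levels were 2.63 CPM for Srp72, 4.19 CPM for Hdac5 and 8.15 CPM for Raph1. Sgtb, Tenm4, Synj1, Tmed4 and Gng12 were on in no Kit-positive and 7 Kit-negative cells, and of all eligible genes 0.387% were on in 6 or more Kit-negative cells and in no Kit-positive cell. Gng12 encodes a G protein gamma subunit and Synj1 a phosphatase of synaptic vesicle recycling. All genes of this paragraph were eligible only through the Kit-negative side, so their direction was set by the limit of 10 CPM.

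A further 2 genes were singled out after their values were seen. Tmsb4x (chrX:167207093-167209315, minus strand), which encodes the actin-sequestering peptide thymosin beta 4, was on in all 14 Kit-negative cells, from 367 to 8511 CPM (median 3811). Kit-positive cells divided, with 4869 CPM in P5, 2802 in P6 and 397 in P4 against 33.5 CPM in P7, 15.2 in P1, 14.2 in P3 and 11.4 CPM in P2. It was the only eligible gene (0.0102%) on in every Kit-negative cell and in under 4 Kit-positive cells. These limits follow its own values, so the share is not evidence of rarity. P3 and P7 are among the 4 cells over 30% mitochondrial counts. Without those 4 cells Tmsb4x was on in P4, P5 and P6, not in P1 or P2, and in all 12 Kit-negative cells left. Ogt (chrX:101640060-101684351, plus strand), which encodes the enzyme that adds the O-GlcNAc sugar that Mgea5 removes, was on in P7 alone (603 CPM) among Kit-positive cells and in 9 of 14 Kit-negative cells. P4 had 47.3 CPM of Ogt and the other 5 at most 4.73 CPM, and the Kit-negative median was 181 CPM. Without the 4 cells over 30% mitochondrial counts Ogt was on in 0 of 5 and 7 of 12 cells. At 1 count or more the Ogt share was 7.14 points higher in Kit-positive cells instead.

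**Figure D4:**
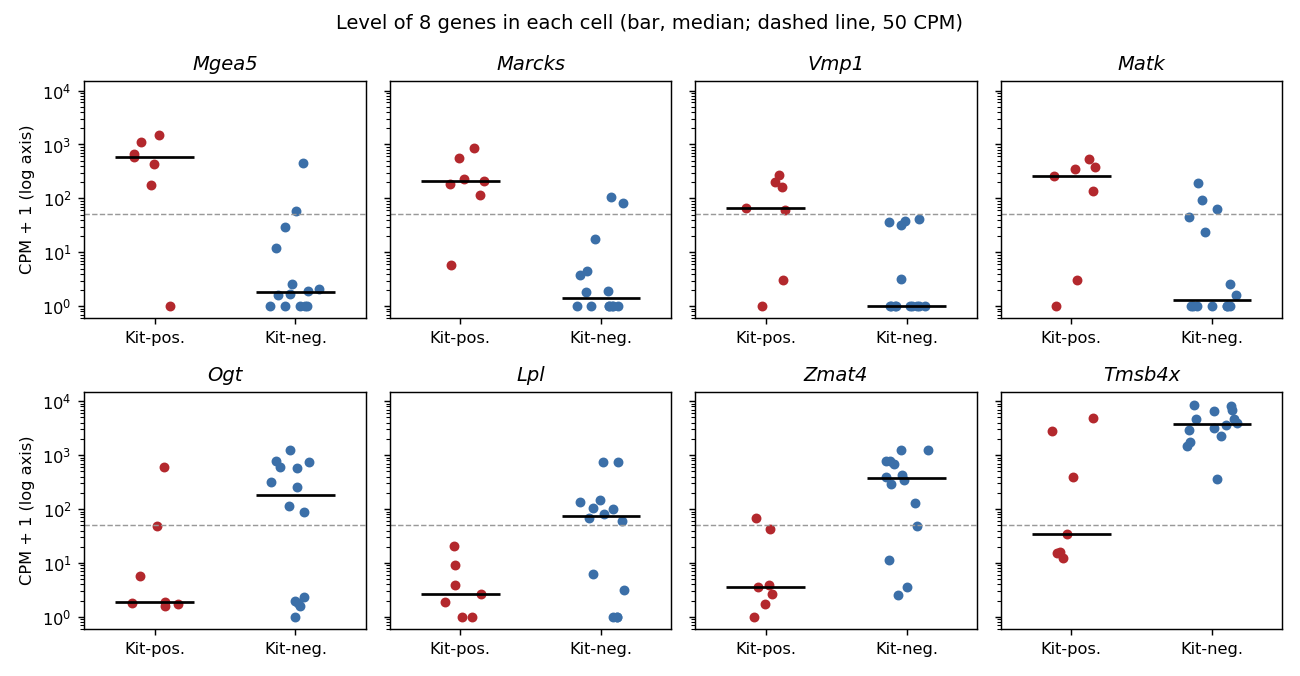
Level of 8 genes in each cell as CPM + 1 on a log axis, with Kit-positive cells in red, Kit-negative cells in blue, a bar at the median and a dashed line at 50 CPM. Mgea5, Marcks, Vmp1 and Matk have the higher median in Kit-positive cells and Ogt, Lpl, Zmat4 and Tmsb4x in Kit-negative cells, with overlap in each panel.

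Genes that carry the Kit signal did not lean to either side as a group. Of 50 genes 46 were in the table and 39 eligible, of which 13 were at least 2-fold higher in Kit-positive cells and 12 in Kit-negative cells (background 22.4% and 29.3%), with a median log2 ratio of 0.04 whose sign turned under 9 of 17 alternatives. The ligand Kitl was not listed. Of the adaptors, Grb2 was on in 5 of 7 and 7 of 14 cells at pooled levels of 307 and 126 CPM. Sh2b2, an adaptor of receptor tyrosine kinases, was on in P1 (141 CPM) and P2 (180 CPM) and had no count in any Kit-negative cell. The phosphatase Ptpn11 was on in P5 (77.4 CPM) and P6 (1064 CPM), and in N9 alone of the other side at 224 CPM. Its partner Ptpn6, which dampens Kit, was on in 3 of 7 and 9 of 14 cells at similar pooled levels of 323 and 265 CPM.

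Kinases of the Ras route differed in direction. Map2k1 was on in 1 of 7 and 6 of 14 cells at pooled levels of 34.1 and 106 CPM. Map2k2 and Mapk3 were on in 5 and 4 of 7 and in 8 and 6 of 14 cells, and the pooled Mapk3 levels were 279 and 101 CPM. Stat3 was on in P5 and P6 and in 4 Kit-negative cells. Of 15 other eligible receptor tyrosine kinases 4 were at least 2-fold higher in Kit-positive and 3 in Kit-negative cells, near the 22.4% and 29.3% of all eligible genes. Ephb6 was on in P2 (627 CPM), P4 (234 CPM) and P5 (221 CPM) against N4 alone (141 CPM), and Erbb3 in 4 of 7 and 7 of 14 cells at 91.5 and 221 CPM.

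Matk, a cytoplasmic kinase known to inhibit Src-family kinases and to bind Kit, was the tuft cell gene with the largest difference in share, on in 5 of 7 cells (71.4%, 29.04 to 96.3%) and 3 of 14 (21.4%, 4.66 to 50.8%). Its levels were 348 CPM in P1, 134 in P2, 545 in P4, 262 in P5 and 386 CPM in P6, with 2.09 CPM in P7 and no count in P3. The highest Kit-negative cell had 192 CPM, so that 4 of the 7 Kit-positive cells lay above all of them. Pooled Matk was 289 CPM (278 to 300.7) against 28.3 CPM (25.6 to 31.3). Of the 17 eligible genes of the tuft cell list 2 had a level at least 2-fold higher in Kit-positive and 5 in Kit-negative cells (22.4% and 29.3% of all eligible genes). Dclk1, a tuft cell kinase, had no count in Kit-positive cells and was on in 3 Kit-negative cells, and Lrmp was on in all 21 cells.

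Genes of MHC class I presentation had pooled levels that were mostly higher in Kit-negative cells, in part through the limit of 10 CPM. None of 11 eligible genes was at least 2-fold higher in Kit-positive cells and 8 were in Kit-negative cells, beside 29.3% of all eligible genes. Of the 11, 6 were eligible only through the Kit-negative side, so their direction was set by the limit, and of the other 5 there were 3 at least 2-fold higher in Kit-negative cells. The median log2 ratio of the 11 was -1.18. H2-Q4 was on in 3 of 7 and 13 of 14 cells, with P7 highest among Kit-positive cells at 517 CPM and N8 among the others at 836 CPM. Without the 4 cells over 30% mitochondrial counts it was 2 of 5 and 11 of 12 cells. P1 and P5 fell just under the limit, at 47.99 and 49.2 CPM. B2m, the light chain of class I molecules, was on in no Kit-positive cell (4 counts in all) and in 5 of 14 Kit-negative cells, up to 970.5 CPM, and the Kit-negative median was 0. H2-D1 was on in 6 of 7 and 12 of 14 cells at pooled levels of 370 and 779 CPM. Class I genes are near-identical copies, so reads may be split among them.

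Genes of nerve contact and adhesion went both ways. Cd44, the hyaluronan receptor, was on in 5 of 7 and 8 of 14 cells, with 2466 CPM in P4, 1700 CPM in P2 and 1261 CPM in P1 above the Kit-negative maximum of 758 CPM. Sema7a, a membrane-bound semaphorin, reached 1910 CPM in P2, 1311 CPM in P1 and 347 CPM in P6 against at most 408 CPM in the 5 Kit-negative cells that had it on. Nlgn2, a neuroligin, was on in P1 (107 CPM), P2 (114 CPM) and P5 (173 CPM) and had no count in the 14 Kit-negative cells. Set against a floor of 3 counts over that side, the pooled Nlgn2 ratio was 448. Counts may hold PCR copies, so this is not a firm lower limit. Nlgn2 was eligible only through the Kit-positive side and so had to differ. Sema3a was on in no Kit-positive and 5 Kit-negative cells. Of 22 eligible genes of this list 6 were at least 2-fold higher in Kit-positive and 6 in Kit-negative cells, near the 22.4% and 29.3% of all eligible genes.

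Channels and glucose transport gave no common direction. Of 11 eligible potassium channel genes 3 were at least 2-fold higher on each side, and of 8 sodium, calcium and related channel genes 3 in Kit-positive and 1 in Kit-negative cells, where 22.4% and 29.3% of all eligible genes were. Of 6 eligible genes of sugar sensing and the KATP channel 2 were at least 2-fold higher on each side. Fgf14, a partner of sodium channels, was on in 3 of 7 and 10 of 14 cells, with a Kit-negative median of 422 CPM. Kcnj11, pore subunit of the potassium channel closed by ATP, was on in 3 of 7 and 4 of 14 cells at pooled levels of 143 and 137 CPM. Slc2a1, the glucose transporter GLUT1, was on in 3 of 7 cells, at most 105 CPM in P6, and in 9 of 14 Kit-negative cells, up to 810.3 CPM.

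**Figure D5:**
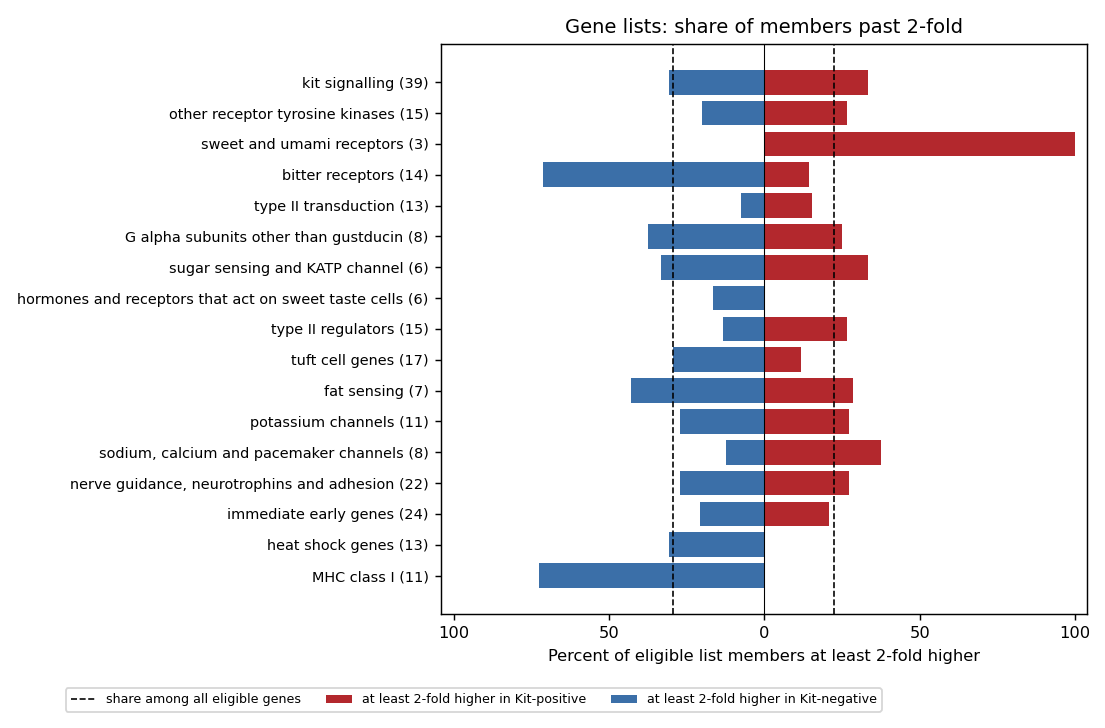
Percent of the eligible members of each gene list (number in brackets) that were at least 2-fold higher in pooled level in Kit-negative cells (blue, left) or Kit-positive cells (red, right), with dashed lines at the shares among all eligible genes, 29.3% and 22.4%. Bitter receptors and MHC class I extend left and the 3 sweet and umami receptors right, and in each of these lists the members eligible through 1 side only (7 of 14, 6 of 11 and 2 of 3 on the longer side) had to differ.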

How the data were processed

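The authors deposited raw counts, whole numbers for each gene in each barcode, from BD Rhapsody libraries of fungiform and circumvallate papillae. Per the submitters' processing notes, cutadapt 2.10, Bowtie2 2.3.4.1, Seurat 2.3.4 and build mm10 were used. The sources used here do not tell whether reads of 1 molecule were merged, so counts may hold PCR copies and intervals may be too narrow. Doublets were not looked for in so few cells.

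The deposited fungiform counts (18985 genes) were scaled to CPM per cell and pooled per side. A gene was on at 50 CPM. Genes with at least 10 CPM on either side were eligible, and log2 ratios used a pseudocount of 10 CPM. The direction of any gene under 10 CPM on 1 side was therefore set by that limit. Intervals are exact (Poisson, Clopper-Pearson, conditional binomial for ratios). Genes named first have at least 50 CPM on the higher side and are on in at least 4 Kit-positive or 7 Kit-negative cells. The 15 largest share differences in each direction were taken, each still 2-fold without the highest cell. Members of 17 gene lists were named from 50 CPM upward, and 14 marker lists were checked. The members and lists were chosen with earlier results of these data known. The counting was tested on simulated data. Python 3.11.15, pandas 2.3.3, numpy 2.4.6, scipy 1.17.1 and matplotlib 3.10.9 were used. Positions are from GENCODE and promoter windows from RefSeq, matched by symbol. Some genes that met these rules are left out of the text, and counts and medians include them.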

Additional observations from a re-analysis of the deposited data

Results flagged for a closer look

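A Kit signal appeared in 1 circumvallate barcode that takes no part in the comparison, because its Gnat3 level of 14.9 CPM fell under the limit. This barcode, of 4088415 counts and 14.6% mitochondrial counts, had Kit at 683 CPM, whereas no kept circumvallate cell of 32 exceeded 2.40 CPM. It also had Tas1r1 at 168 CPM, Tas1r2 at 2211 CPM, Tas1r3 at 632 CPM and Etv1 at 903 CPM. Among the 32 kept circumvallate cells Tas1r1 was on in 8, Tas1r2 in 4 (highest 127 CPM), Tas1r3 in 7 and Etv1 in none (highest 46.7 CPM). Of the other 28 circumvallate barcodes that were not kept, all with Kit off, none had Tas1r1 or Tas1r3 on. In 1 of them Tas1r2 was on at 4123 CPM and in another Etv1 at 206 CPM. These 28 barcodes had at most 340414 counts and 1265 genes detected, against 9949 genes in the barcode with Kit. Their mitochondrial shares ran from 4.58% to 98.7%, most above 60%, so a gene that was off there carries little weight. Eya1 stood at 4.16 CPM in the barcode with Kit, and Plcb2 (2005 CPM), Trpm5 (1369 CPM) and Gng13 (3917 CPM) were on. It is a single barcode, and no test was possible.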

How the results depend on the processing

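With 22 alternatives (21 planned, and 1 chosen after seeing the data, without the 4 cells over 30% mitochondrial counts), the 62 genes on more often in Kit-positive cells became 115 with on at 1 count, 36 at 100 CPM, 21 with Kit at 10 CPM, 128 with at most 60% mitochondrial and 10% ribosomal RNA counts and 238 without the 4 cells. The 43 genes of Kit-negative cells became 24 at 100 CPM, 3 with no Gnat3 limit, 26 under the 60% and 10% limits and 65 without the 4 cells. The 2198 genes with the higher level in Kit-positive cells became 3638 of 9634 eligible genes with Kit at 1 count. They became 1172 of 6503 without the highest cell per gene and 1213 of 5284 at 50 CPM or more. The 2879 of Kit-negative cells became 1245 of 5284 at 50 CPM or more. The main setting had 9813 eligible genes, so these counts come from pools of different size. Leaving out each Kit-positive cell in turn gave 46 to 128, 26 to 62, 2112 to 2226 and 2866 to 3572 genes. The cause of these shifts was not tested.

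Of 1445 recomputed log2 ratios 13 turned. With Kit at 1 count they were Tas2r102 (0.0598), Tas2r105 (0.30), Gnai1 (2.40), Sox2 (-1.08), Fgf14 (0.0729), Bag3 (0.15), Tubb3 (-0.72), Lpl (0.49), Auh (0.12), Srp72 (0.22), Zmat4 (0.26) and Tmed4 (0.45), and with no Gnat3 limit Sox2 (-0.20). Of 648 share differences 3 turned, Raph1 (6.67 points) with Kit at 1 count, and Tas1r3 (-7.14) and Ogt (7.14) with on at 1 count. Kit at 1 count moves 8 cells with 1 to 4 Kit counts to the Kit-positive side. No paired analysis was possible because both sides come from 1 library and cells carry no replicate number. The number of cells limits what a share of 0 can show, with exact upper limits of 40.96% for 7 cells and 23.2% for 14.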

Other observations

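The 30 genes that led in the 2 directions were looked up in the circumvallate barcode with Kit, which took no part in choosing them. It had 9 of the 15 genes of the Kit-positive side on, against a median of 5 (3 to 13) in the 14 kept circumvallate cells of over 1000000 counts, of which 2 had at least as many. It also had 8 of the 15 genes of the Kit-negative side on, against a median of 7.5 (4 to 11) in those cells. Of all eligible genes it had 3196 on, or 32.6%, against a median of 2883 (29.4%) in those 14 cells, of which 13 had no more. Vmp1 (132 CPM), Mgea5 (176 CPM), Marcks (124 CPM) and Matk (393 CPM) were on, but Vmp1, Mgea5 and Marcks were also on in 11, 10 and 7 of the 32 kept circumvallate cells, none of which had Kit on. In the same barcode Tpgs1, Dhx16, Pih1d1 and Cplx2 had at most 4 counts. Lpl (1.96 CPM), Ogt (2.69 CPM) and Zmat4 (2.20 CPM) were not on, whereas Hdac5 (218 CPM), Ociad2 (378 CPM) and Tmsb4x (529 CPM) were. Gnaq stood at 1946 CPM and Gna14, which is not listed in the fungiform table, at 1758 CPM.

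Immediate early genes, which follow cell activity and tissue handling, had 5 of 24 eligible members at least 2-fold higher in Kit-positive and 5 in Kit-negative cells, near or below the 22.4% and 29.3% of all eligible genes. Fos was on in 6 of 7 and 12 of 14 cells at pooled levels of 2258 and 1137 CPM, and Arc in 3 of 7 and 7 of 14 at 136 and 334 CPM. Of 13 eligible heat shock genes none was at least 2-fold higher in Kit-positive and 4 were in Kit-negative cells, beside 22.4% and 29.3% of all eligible genes. Bag3, a co-chaperone, was on in P1 (96.7 CPM) and P6 (52.8 CPM) and in 7 Kit-negative cells up to 801 CPM.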
